A study of Mus musculus with 4 samples.

Results

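Cwc22 encodes a protein of the spliceosome, and 8 of the 28853 probe sets in the series were annotated to this gene and to no other. The probe sets were taken by that annotation, and the gene, 1 of 19938 with a probe set of its own, had been chosen by its measured difference between the groups of this study. Gene expression had been measured with Affymetrix arrays in mesenchymal cells of the dermal papilla, the cluster that sits beneath each hair, sorted from the skin of mice at postnatal day 5. The cKO group held 2 arrays of mice in which Sox2, a transcription factor of the SOX family, had been conditionally deleted, and the Het group held 2 arrays of Sox2 heterozygous mice. Cells of both groups were sorted for a Sox2-driven green fluorescent protein together with integrin alpha 9. The labels used here name neither the strain, the sex and the Cre driver nor the remaining alleles, and they call the arrays biological replicates 1 and 2 without saying whether these came from separate animals, litters or pools. Any p-value therefore measures the spread between these samples, and having so few arrays limits the precision throughout.

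CWC22 sits in the spliceosome and, in human cells, binds the helicase EIF4A3 and brings it to the splicing machinery, so that an exon junction complex can be left on the spliced messenger RNA. That complex later takes part in export, translation and nonsense-mediated decay of the message. The protein contains a MIF4G domain, a fold shared with translation initiation factors. In mice the gene lies on chromosome 2 in a segment whose copy number differs between strains. All values below are differences on the log2 scale from the median of the 4 arrays, because the deposited table had been centred in that way for every probe set. They carry no expression level, so neither the abundance of Cwc22 nor the labelled tissue can be checked against the level of its defining markers. In bulk samples of this kind, fewer cells of a type and less RNA per cell cannot be told apart. The centring also makes the middle pair of arrays mirror each other around 0.

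For orientation on the locus, the 250 bases before the annotated start of Cwc22 were taken from RefSeq. They span chr2:77946357-77946606, minus strand, build GRCm38.p6, and are written 5′ to 3′. Capitals mark the only match to a SOX core motif, searched as ACAAAG or ACAATG on both strands (CTTTGT or CATTGT on the other strand). At least 1 such match was present in 25.2% of the 32851 promoter windows of that length in the same table, so a match is common. It is a description of the letters and says nothing about binding.
Cwc22 promoter: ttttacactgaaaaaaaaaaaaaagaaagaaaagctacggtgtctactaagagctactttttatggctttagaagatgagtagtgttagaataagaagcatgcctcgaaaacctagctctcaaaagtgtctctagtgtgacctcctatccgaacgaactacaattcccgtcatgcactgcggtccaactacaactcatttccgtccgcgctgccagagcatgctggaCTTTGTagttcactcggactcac

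The 8 probe sets held 2 distinct measurements. Probe sets 10473322, 10473325, 10473328, 10473331, 10473334, 10473337 and 10473340 gave almost the same value in each array, and the largest gap between any 2 of these 7 in any array was 0.00336. Their mean was 0.32 and 0.80 in cKO replicates 1 and 2, against -0.64 and -0.32 in Het replicates 1 and 2. Both cKO arrays thus lay above both Het arrays, and the groups did not overlap. The eighth probe set, 10484249, stood at -0.0001 and 0.4137 in cKO replicates 1 and 2, against -0.0730 and 0.0001 in Het replicates 1 and 2. Here only cKO replicate 2 was apart from the rest, and the other cKO array lay within the range of the Het arrays. Because 7 probe sets repeated a single measurement, they were not 7 independent observations of the gene.

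**Figure D1:**
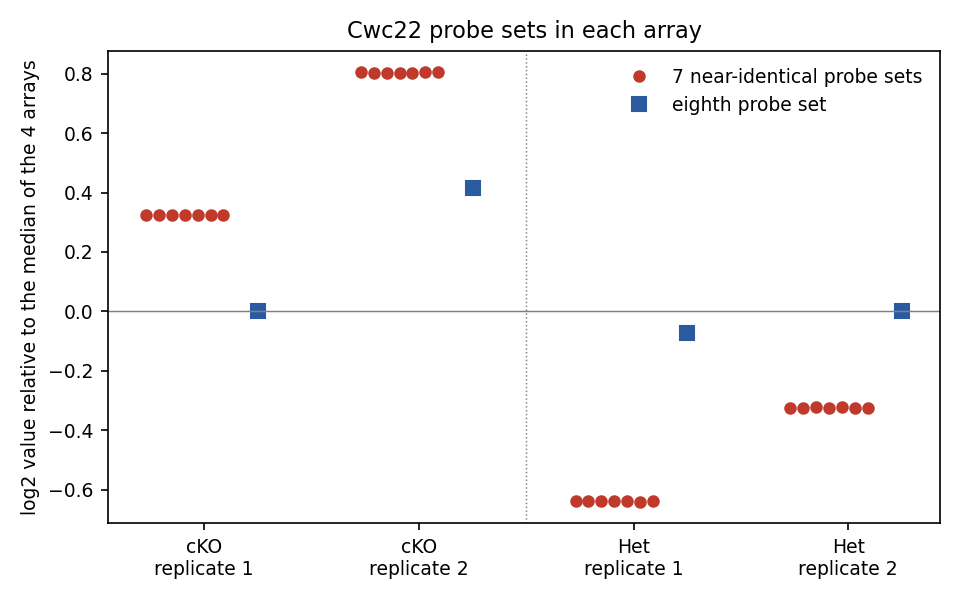
Log2 value relative to the median of the 4 arrays (vertical axis) for each of the 8 Cwc22 probe sets in each array, cKO on the left and Het on the right. The 7 red points of an array lie within 0.00336 of each other and run from -0.64 in Het replicate 1 to 0.80 in cKO replicate 2, while the blue square of the eighth probe set leaves the region of 0 only in cKO replicate 2, at 0.41.

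The difference between the groups, cKO minus Het, lay between 1.044 and 1.049 in the 7 near-identical probe sets, or 2.06-fold to 2.07-fold. It was 0.24, or 1.18-fold, in the eighth. In the near-identical set the group means were 0.56 with an SD of 0.34 in cKO and -0.48 with an SD of 0.22 in Het (n = 2 arrays each). In the eighth probe set they were 0.21 with an SD of 0.29 in cKO and -0.04 with an SD of 0.05 in Het. The gene was singled out because of this difference, so these values are a description and no test is given for them. The arrays of the set stood in the order Het replicate 1, Het replicate 2, cKO replicate 1 and cKO replicate 2 from low to high. The gap across the groups, 0.65 from Het replicate 2 to cKO replicate 1, was larger than the gaps of 0.48 between the cKO arrays and 0.32 between the Het arrays. The same order of arrays was found in 6.63% of all probe sets.

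Taken array by array, the set exceeded the eighth probe set by 0.32 and 0.39 in cKO replicates 1 and 2 and differed from it by -0.57 and -0.32 in Het replicates 1 and 2. The measurements parted most in Het replicate 1, where the set was far below its median and the eighth probe set was not. Within the groups, cKO replicate 2 was above cKO replicate 1 by 0.48 in the set and by 0.41 in the eighth, while Het replicate 2 was above Het replicate 1 by 0.32 and by 0.07. Pairs with the same replicate number differed, cKO minus Het, by 0.96 and 1.13 in the set and by 0.07 and 0.41 in the eighth. Without cKO replicate 2 the difference was 0.81 in the set and 0.04 in the eighth.

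How the gene is summarised therefore sets its value. The mean over all 8 probe sets gave a difference of 0.95, or 1.93-fold, and counted 1 measurement 7 times. With the near-identical probe sets counted once, a choice made after the values were seen, the difference was 0.64, or 1.56-fold, with 0.16 and 0.61 in cKO replicates 1 and 2 and -0.36 and -0.16 in Het replicates 1 and 2. Both summaries contain the set, and the groups were separated in both, while those of the eighth probe set alone overlapped.

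Of the 8 probe sets, 7 differed at least 2-fold with separated groups and were higher in cKO, a rule met by 0.0485% of all probe sets; since this difference is why the gene was chosen, nothing is read from that share. They made up 7 of the 14 probe sets of the whole table that met it, which leaves 8 distinct measurements when the set is counted once. The other 7 had a larger gap within at least 1 group, between 0.87 and 3.23, against 0.48 in the Cwc22 set. By the separation of groups alone, 7 of 8 Cwc22 probe sets were higher in cKO, against 18.9% of all probe sets. These 7 repeat 1 measurement, and the eighth probe set was not separated. With the gene chosen by its difference, nothing is read from that comparison, from the smaller gap of the set or from the ranks that follow. Ranked by difference over the whole table, the set took places 7 to 13 from the top and the eighth probe set place 716, with 2.48% of probe sets above it. Over all probe sets limma's test called 0 of 28853 at an adjusted p of 0.05, with 1638 (5.68%) at an unadjusted p under 0.05.

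**Figure D2:**
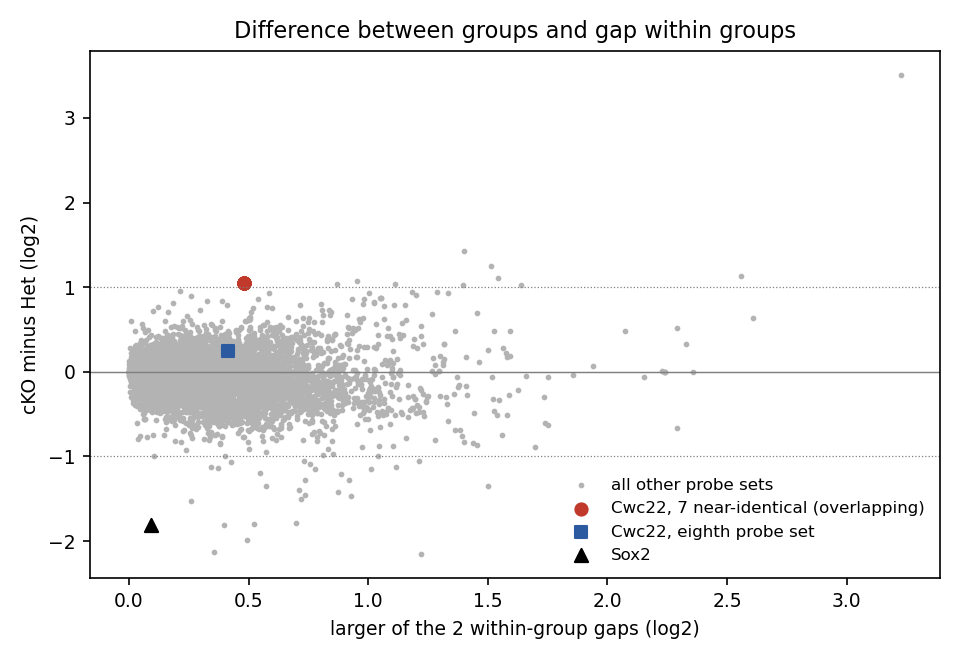
Difference cKO minus Het on the log2 scale (vertical axis) against the larger of the gaps within the cKO and the Het pair (horizontal axis, log2) for all 28853 probe sets, with dotted lines at 2-fold. The near-identical Cwc22 set sits at a difference of 1.05 and a gap of 0.48, and the other probe sets past 2-fold higher with separated groups lie further to the right, at gaps from 0.87. The gene was chosen by its difference, so nothing is read from its place.

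The platform annotation described the 2 measurements differently. Each of the 7 near-identical probe sets listed the same 10 transcript accessions, whereas the eighth listed 4, all of them among the 10. No probe set named Cwc22 together with another gene. The numbers of the probe sets also placed them apart. In these stretches of the array the numbers follow the genome, 1 strand at a time: the 20 named genes with the nearest numbers around the set all lay on chromosome 2 of GRCm38.p6, in genome order at 19 of 19 steps, and the 14 of them with a listed strand were all on the plus strand. Of the 20 around the eighth, 18 were on chromosome 2, in order at 17 of 17 steps, and the 16 with a listed strand were all on the minus strand.

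Cwc22 itself is annotated on the minus strand between Zfp385b and Cerkl, and the number of the eighth probe set falls between the probe sets of those genes. The numbers of the near-identical set fall instead between Fam171b and Med19, with 18 protein-coding genes of the table between Cwc22 and Fam171b. In that second interval the gene table lists 15 genes, 6 of them protein-coding and 8 of them pseudogenes. Of the pseudogenes, 7 share a length: Gm13698, Gm13693, Gm13695, Gm13696, Gm13694, Gm13697 and Gm13691. Each of these is 3054 bases long, and their starts are evenly spaced at 5810 bases. None of the 7 was named by a probe set, and only 1 gene of the table carries the name Cwc22. Whether the 7 probe sets were designed to these 7 loci was not tested, since probe sequences were not used here. If the probes of the set match several near-identical copies, their signal cannot be assigned to a single locus.

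Other genes with many probe sets gave a scale for this behaviour. Besides Cwc22, 38 genes had at least 8 probe sets, and their mean differences lay between -0.54 and 0.27. The SD among the probe sets of a gene had a median of 0.07 and ran from 0.02 to 0.37; it was 0.28 for Cwc22. The highest mean differences after Cwc22 were those of Myo9a, an unconventional myosin gene, and Taf1d, a gene of the RNA polymerase I initiation machinery, both at 0.27. The lowest was that of the ribosomal protein gene Rpl13 at -0.54, where all 9 probe sets were lower with separated groups. Among the 999 genes with more than 1 probe set, Cwc22 had the highest mean difference. Nothing is read from that rank, since the gene was chosen by its difference. It also rests on the mean over 8 probe sets, which counts 1 measurement 7 times. Probe sets within 0.01 of each other in every array were counted among those that reached 0.3 in some array. Of 173 genes with at least 2 such probe sets, 13 held near-identical ones. Cwc22 had the most, with 7, followed by Cdc5l, a core gene of the catalytic spliceosome, with 6.

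**Figure D3:**
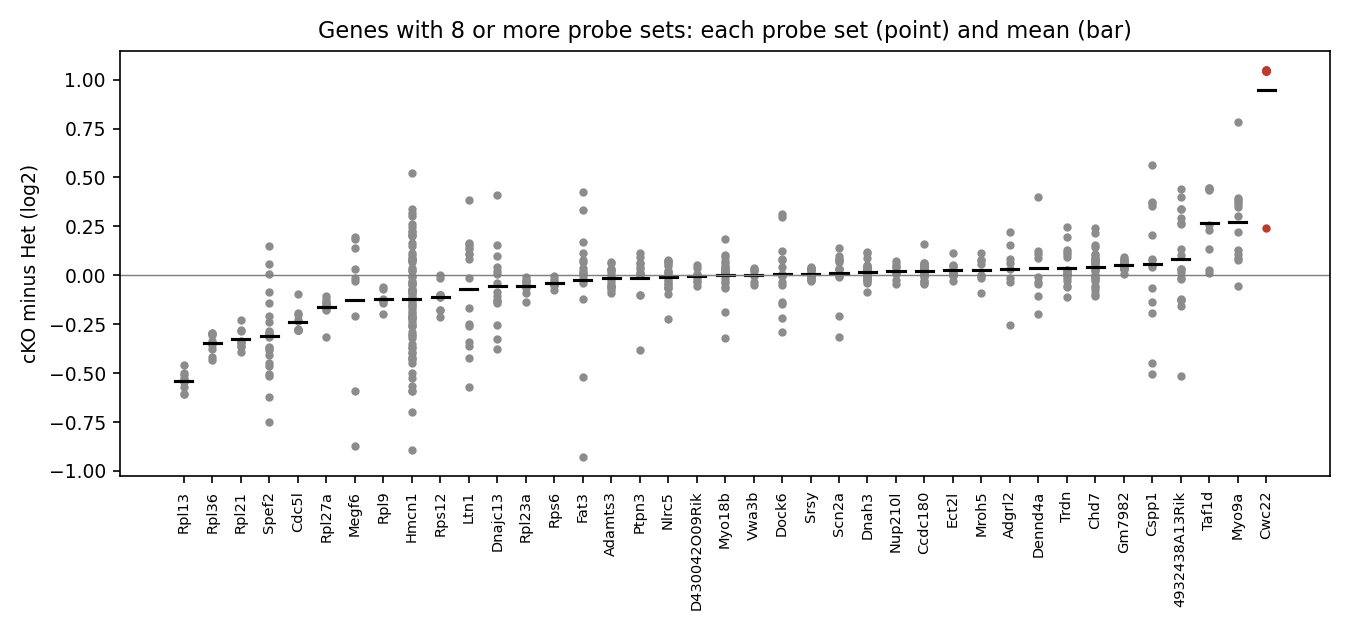
Difference cKO minus Het on the log2 scale (vertical axis) of each probe set (points) and their mean (bars) for the 39 genes with at least 8 probe sets, ordered by mean. The Cwc22 points fall at 1.05, where 7 overlap, and at 0.24, and the means of the other 38 genes lie between -0.54 and 0.27.

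The genes on either side of Cwc22 were taken by position from the gene table, 10 on each side, and their difference had no part in the choice. Of these 20 neighbours 7 were higher and 13 lower in cKO, where 52.3% of all genes were higher. They had differences between -0.23 and 0.08 and a median of -0.04, against a median of 0.003 over all genes. Separated groups were found in 2 neighbours higher in cKO and in 4 lower, against 17.8% and 15.6% of all genes. Limma called 0 of the 20 over all genes, as it did for 0% of the 19938 genes, and 1 neighbour had an unadjusted p under 0.05, a limit met by 5.28% of all genes. The unmoderated statistic also called 0.

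The nearest measured neighbour before Cwc22 is Zfp385b, a zinc finger gene, at -0.05 and -0.12 in cKO replicates 1 and 2 and 0.10 and 0.05 in Het replicates 1 and 2. Its groups did not overlap, and the difference of -0.16 ± 0.04 (SE, n = 2 arrays per group) ran opposite to that of Cwc22 and missed the threshold (adjusted p = 0.936, limma). The nearest after it, Gm14461, had a difference of 0.05 ± 0.04. Itprid2 had the lowest difference of the 20, -0.23 ± 0.09, and the secreted WNT inhibitor gene Frzb the highest, 0.08 ± 0.18, with overlapping groups. Frzb was at -0.10 without cKO replicate 2 and at -0.08 without Het replicate 2. No neighbour within 10 genes of the annotated Cwc22 showed a difference the size of that of either Cwc22 measurement in the direction of cKO. Several of them, such as Ttn, Ccdc141, Itga4 and Cerkl, stayed within 0.05 of 0 in every array. Without levels it is not known whether these were detected, so their small differences do not show an unchanged region. With 20 genes on each side, 18 were higher and 22 lower, and limma called 0. Groups were separated in 12.5% each way, against 17.8% and 15.6% of all genes. Differences there lay between -0.38 and 0.43. Ttc30b at 0.43 ± 0.12 and Nckap1 at 0.25 ± 0.08, both separated, exceeded the eighth probe set but not the near-identical set.

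Around the place given by the numbers of the near-identical set, 20 genes were read in the same way. Of these, 17 were not among the neighbours within 10 genes of Cwc22. This group was chosen after the order of the numbers was seen and is described without a test. Its differences lay between -0.38 and 0.25, with 6 genes higher and 14 lower in cKO, where 52.3% of all genes were higher. Groups were separated in 2 of the higher genes and in 5 of the lower, or 10% and 25% of the 20, against 17.8% and 15.6% of all genes. Nckap1, which encodes a subunit of the actin-regulating WAVE complex, stood at 0.24 and 0.06 in cKO replicates 1 and 2 and at -0.13 and -0.06 in Het replicates 1 and 2. Ctnnd1, the gene of the cadherin partner p120-catenin, stood at 0.07 and 0.17 in cKO replicates 1 and 2 and at -0.11 and -0.07 in Het replicates 1 and 2. These were the 2 higher genes with separated groups. The lower genes with separation were Selenoh, Med19, Zc3h15, Pde1a and Ypel4, of which the selenoprotein gene Selenoh had the lowest difference, -0.36 ± 0.13. The genes that flank the set by number were lower in cKO, Fam171b by -0.38 ± 0.28 with overlapping groups and the Mediator subunit gene Med19 by -0.30 ± 0.11 with separated groups. Fam171b shrank to -0.04 without Het replicate 1.

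**Figure D4:**
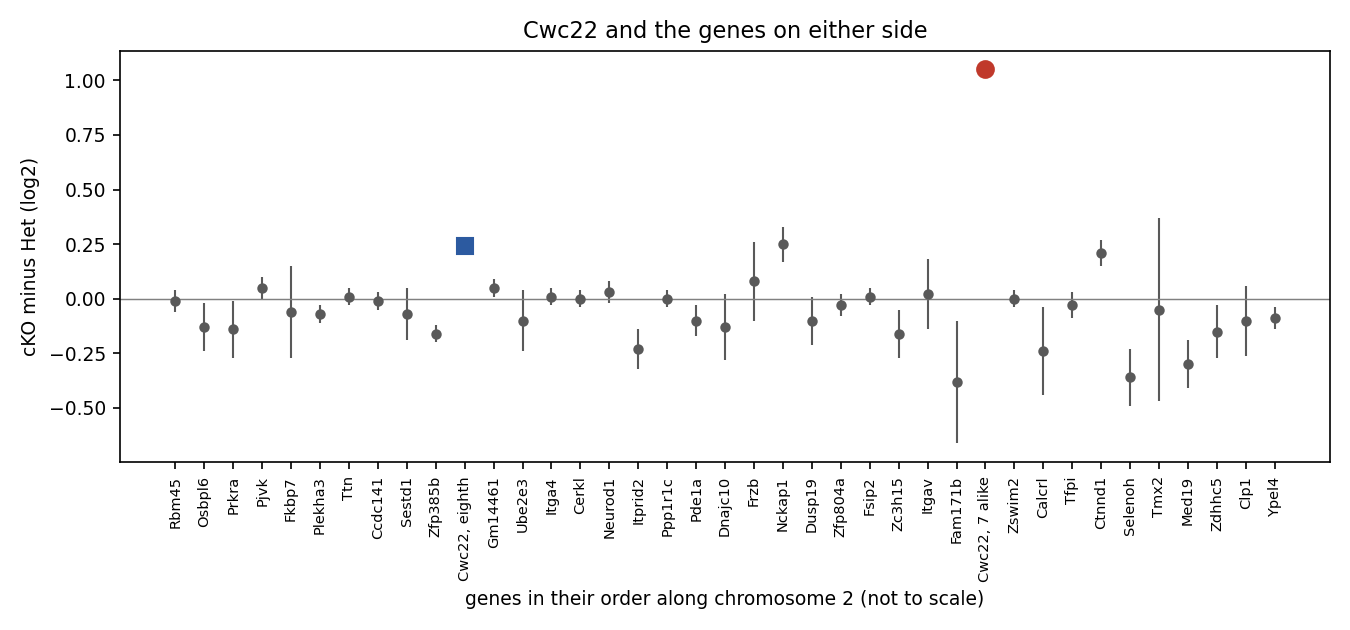
Difference cKO minus Het on the log2 scale (vertical axis, bars are the SE of limma's fit) for named genes in their order along chromosome 2, not to scale, with the 2 Cwc22 measurements at the places their probe set numbers give. The near-identical set at 1.05 stands above all of the flanking genes, which lie between -0.38 and 0.25, and the eighth probe set at 0.24 lies just below the highest of them, Nckap1.

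Genes of the machinery in which CWC22 works were described from lists based on their known roles. Of 12 measured genes of the exon junction complex and its associated factors, 4 were higher and 8 lower in cKO, where 52.3% of all genes were higher. Of the 12, 0 passed limma's test over all genes or had an unadjusted p under 0.05, a limit met by 5.28% of all genes. The core helicase gene Eif4a3 stood at 0.05 and -0.43 in cKO replicates 1 and 2, against 0.19 and -0.05 in Het replicates 1 and 2. The difference of -0.26 ± 0.20 came with overlapping groups. The core genes Casc3 and Rbm8a differed by -0.24 ± 0.18 and -0.07 ± 0.06, also with overlap, while Magoh and Magohb were not analysed here. Without cKO replicate 2 the differences were -0.03 for Eif4a3, -0.00 for Casc3 and -0.02 for Rbm8a, and Rbm8a was also at -0.02 without Het replicate 2. Srrm1, a splicing coactivator gene, differed by 0.15 ± 0.08 and was the 1 gene of the list with separated groups. That is 8.33% of the list higher with separation and 0% lower, against 17.8% and 15.6% of all genes. Rnps1, an activator of splicing that joins the complex, had the lowest difference, -0.28 ± 0.22. Leaving out Het replicate 1 gave -0.05 for it, and leaving out cKO replicate 2 gave -0.11. The median of the list was -0.18 in cKO replicate 2, the array in which Cwc22 stood highest, and 0.06 in cKO replicate 1, against 0.10 and -0.09 in Het replicates 1 and 2.

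Among 39 measured proteins of the activated and catalytic spliceosome, the assembly that CWC22 joins, 10 were higher and 29 lower in cKO, where 52.3% of all genes were higher. Of the 39, 3 were higher and 10 lower with separated groups, or 7.69% and 25.6% of the list, against 17.8% and 15.6% of all genes. The median was -0.09, and 0 passed limma's test, with 3 at an unadjusted p under 0.05 (7.69%, against 5.28% of all genes). The lowest difference was that of the GTPase gene Eftud2, -0.37 ± 0.16 and -0.16 without cKO replicate 2, and the highest that of Plrg1, 0.27 ± 0.24, with overlapping groups and a value of -0.02 without Het replicate 2. The branch-site recognition gene Sf3b1 differed by 0.24 ± 0.08 with separated groups. Cdc5l, at -0.24 ± 0.16, had overlapping groups and was at -0.04 without cKO replicate 2 and -0.44 without cKO replicate 1. The Sm and snRNP proteins, which build the small nuclear particles, had 13 of 20 genes lower and a median of -0.11. Groups were separated in 7 of the lower genes and 1 of the higher, or 35% and 5% of the list, against 15.6% and 17.8% of all genes. Snrpd2, an Sm core gene, stood at -0.19 and -0.63 in cKO replicates 1 and 2 and at 0.19 and 0.23 in Het replicates 1 and 2, which gives -0.62 ± 0.17 with an adjusted p of 0.936 (limma) and -0.40 without cKO replicate 2. None of the 20 passed, with 3 at an unadjusted p under 0.05 (15%, against 5.28% of all genes).

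Of 9 measured nonsense-mediated decay factors 4 were higher and 5 lower, with a median of -0.01. Groups were separated in 3 of the lower genes (33.3% of the list, against 15.6% of all genes) and in 0 of the higher (against 17.8%). Limma's test passed 0, with 2 at an unadjusted p under 0.05 (22.2%, against 5.28% of all genes). Smg9, a regulator of the kinase SMG1, had the lowest difference at -0.22 ± 0.05 with separated groups. Upf2, which like Cwc22 carries MIF4G domains, had the highest at 0.18 ± 0.15 with overlap. The 8 measured genes of other MIF4G-domain proteins, the relatives of Cwc22 by fold, lay between -0.08 and 0.18. Of these 6 were higher and 2 lower, where 52.3% of all genes were higher, and 0 of the 8 passed or had an unadjusted p under 0.05. The unmoderated statistic called 0 genes of each of these lists. No gene of any of these 5 lists differed 2-fold.

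**Figure D5:**
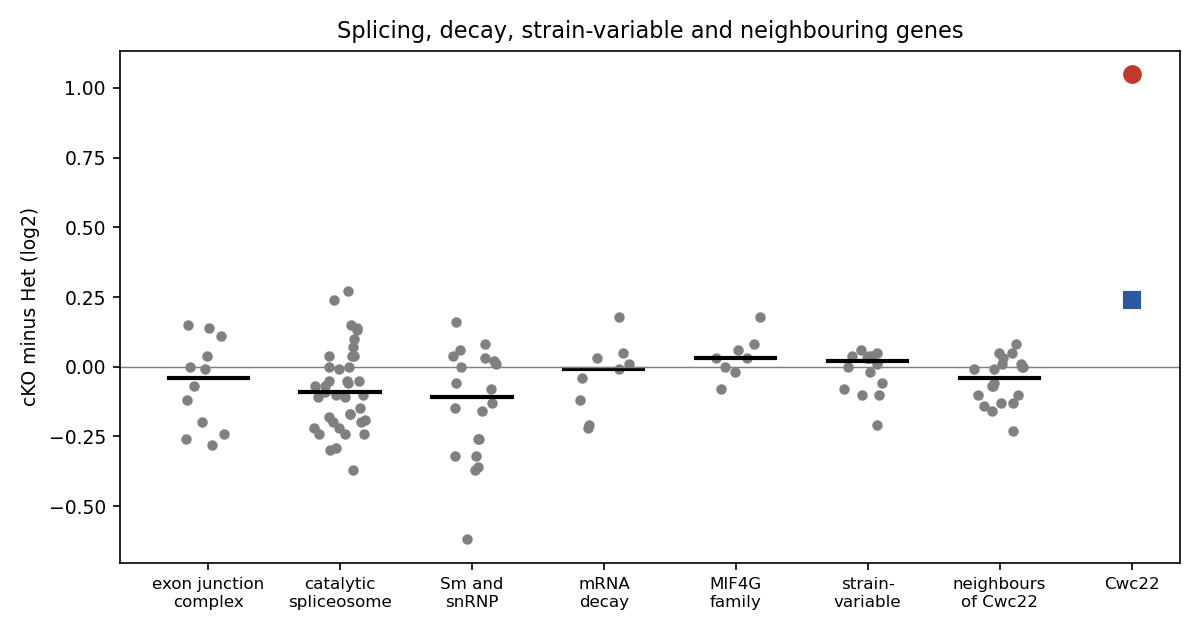
Difference cKO minus Het on the log2 scale (vertical axis) of each measured gene (grey points) and the median (black bars) in 5 lists of splicing, decay and MIF4G genes, in genes that vary between strains and in the 20 neighbours of Cwc22, with the near-identical Cwc22 set (red) and the eighth probe set (blue) on the right. List medians lie between -0.11 and 0.03, and the red point at 1.05 stands above every listed gene.

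Strain background was not recorded in the labels used here, and its part in the Cwc22 difference was not tested. As the values that bear on it, 16 measured genes known to vary between inbred strains in copy number or by inactivating alleles lay between -0.21 and 0.06. Of these 10 were higher in cKO, where 52.3% of all genes were higher. In 5 of the 10 the groups were separated (31.2% of the list, against 17.8% of all genes). The remaining 6 of the 16 were lower, 1 with separation (6.25%, against 15.6%). The separated higher genes, Dnah8, Fgfbp3, Nlrp1b, Naip2 and Klra8, differed by only 0.03 to 0.05, and the separated lower gene Mx2 by -0.06. The median absolute difference over all probe sets was 0.047. None of the 16 genes differed 2-fold, and limma called 0 with 0 at an unadjusted p under 0.05, a limit met by 5.28% of all genes. Several of the 16, among them Klra8, Naip2, Naip5, Ifi202b and Nlrp1b, stayed within 0.05 of 0 in all arrays. The values carry no level, so whether such genes were detected at all is not known, and nothing is concluded from their small differences. Nnt, a mitochondrial transhydrogenase gene partly deleted in the C57BL/6J strain, differed by -0.10 ± 0.18 with overlapping groups. Glo1, the glyoxalase gene duplicated in several strains, differed by -0.08 ± 0.31, and Ide, the insulin-degrading enzyme gene, by 0.06 ± 0.09, both with overlap. The heme synthesis gene Alad had the lowest difference of the list, -0.21 ± 0.16, and stood at 0.41 in Het replicate 1 against 0.00 or close to it elsewhere.

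Sex-linked genes also had separated groups, as the near-identical Cwc22 set did. Separation was found in 17.8% of all genes with higher and 15.6% with lower values in cKO. Xist, which silences an X chromosome in females, was at 0.85 and 1.23 in cKO replicates 1 and 2 and at -4.08 and -0.85 in Het replicates 1 and 2. This is the order of arrays of that set, which 6.63% of all probe sets showed. The Xist difference was 3.51 ± 1.23, and 1.90 without Het replicate 1 (adjusted p = 0.937 over all genes, limma). Genes of the Y chromosome had negative differences, namely Eif2s3y with -1.81 ± 0.16, Kdm5d with -0.75 ± 0.14 and Uty with -0.59 ± 0.14. Their groups were separated, and the adjusted p-values were 0.885, 0.897 and 0.934 (limma). The reverse of the order of arrays in the Cwc22 set was found in Kdm5d but not in Eif2s3y or Uty. Sox2 stood at -0.87 and -0.94 in cKO replicates 1 and 2, against 0.96 and 0.87 in Het replicates 1 and 2. Its values were nearly equal within each group, unlike those of Cwc22. The Sox2 difference was -1.81 ± 0.06, and its adjusted p of 0.345 (limma) was the smallest of all genes. Even the deleted gene thus missed the threshold, so 0 calls in a list do not show that its genes were unchanged.

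Marker lists of the skin cells that a sort could hold differed in their order of arrays. For scale, groups were separated in 17.8% of all genes with higher and 15.6% with lower values in cKO. An unadjusted p under 0.05 (limma) was met by 5.28% of all genes. The median of 8 keratinocyte markers was -0.05 and 0.02 in cKO replicates 1 and 2, against -0.12 and 0.49 in Het replicates 1 and 2, and 7 of the 8 were lower in cKO, 1 with separated groups. All 5 dermal fibroblast markers were lower, 3 with separation, and their median was -0.05 and -0.10 in cKO replicates 1 and 2, against 0.17 and 0.33 in Het replicates 1 and 2. All 3 measured Schwann cell markers were lower, 1 with separation, with a median of 0.04 and -0.49 in cKO replicates 1 and 2, against 0.36 and 0.20 in Het replicates 1 and 2. The 4 endothelial markers had a median of 0.01 and 0.02 in cKO replicates 1 and 2, against -0.06 and -0.01 in Het replicates 1 and 2, and the 4 immune markers 0.01 and 0.02, against -0.02 and -0.01. Those small shifts of the medians ran in the order of arrays of the near-identical Cwc22 set, but not every single gene did. In each of these lists 3 of 4 genes were higher and 1 lower in cKO, and 2 of the higher genes had separated groups. The separated higher genes were Pecam1 and Tek among the endothelial and Ptprc and Csf1r among the immune markers, with differences of only 0.03 to 0.07. The lower genes were Cdh5 at -0.13 ± 0.17 with overlap and Lyz2 at -0.05 ± 0.04 with separation. Melanocyte markers were lower in 6 of 7 cases and Merkel cell markers in 2 of 4, all with overlapping groups. Of 10 dermal papilla markers 4 were higher and 6 lower in cKO, with 3 separated in each direction. Limma passed 0 of the 10, with 4 at an unadjusted p under 0.05. The separated markers were Wif1 at 0.75 ± 0.22, Lef1 at 0.51 ± 0.23 and Sox18 at 0.40 ± 0.15 among the higher, and Vcan at -0.77 ± 0.26, Rspo3 at -0.66 ± 0.13 and Alpl at -0.43 ± 0.08 among the lower. Itga9, the integrin of the sort, was at -0.14 ± 0.14 with overlap. The part of sex or cell makeup in the Cwc22 difference was not tested.

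The genes whose values lay closest to the mean Cwc22 profile were found by the root mean square distance over the 4 arrays, which picks large differences by construction and is a description. The median distance over all genes was 0.513. The nearest was 4833420G17Rik at 0.094, with 0.26 and 0.80 in cKO replicates 1 and 2 and -0.39 and -0.26 in Het replicates 1 and 2. Next came Wif1, a secreted WNT inhibitor gene of the papilla, at a distance of 0.099, and Aldh1a3, a retinoic acid synthesis gene, at 0.116. Their differences, cKO minus Het, were 0.75 and 0.93. Mrps10, Klhl24, Dio2, Ralgps2 and Pitpnc1 followed at 0.217 to 0.229, each represented by 1 probe set. Dio2, the thyroid hormone activating deiodinase gene, had its arrays at 0.33 and 0.45 in cKO replicates 1 and 2 and at -0.33 and -0.51 in Het replicates 1 and 2. The eighth Cwc22 probe set was further away, at 0.362, and 148 other genes lay closer to the mean profile of Cwc22 than this probe set did.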

How the data were processed

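Per the submitters' processing notes the authors used RMA, and the deposited values were read as log2; neither the log base nor the software version, genome build or centring step was stated. Every probe set had a median of 0 over the 4 arrays, within 1e-06, so no filter on level and no choice of the brightest probe set was possible. Per the labels' protocols, small amounts of RNA were amplified before labelling. Gene names came from the platform annotation: 21789 probe sets named 1 gene, 1621 several and 5443 none; symbols were checked against the gene table of GRCm38.p6, which changed 0. A gene is the mean over the probe sets that name it alone. The comparison of cKO with Het used limma 3.58.1 in R 4.3.3 (lmFit, then eBayes, with group as the single term, two-sided), with Benjamini-Hochberg adjustment over all 28853 probe sets or 19938 genes at 0.05. Residual degrees of freedom were 2, to which the gene-level prior contributed a further 1.52. It was tested on simulated data with known changes. Figures were drawn with matplotlib 3.10.9.

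Cwc22, the gene lists and the tests were chosen with earlier results of these data known. Named genes are Cwc22, Sox2, its neighbours by position, exon junction core genes, the largest differences of each list, sex-linked genes, Itga9, Alpl, the 8 genes closest in pattern, and examples among genes with at least 8 probe sets; of these a part is described. Genes around the numbers of the near-identical set were added after their values were seen. Alternatives were an unmoderated statistic, a robust prior, arrays centred by their median, a replicate block, leaving out single arrays, a 1.5-fold threshold, 20 neighbours on each side, medians over probe sets, and near-identical probe sets counted once.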

Additional observations from a re-analysis of the deposited data

How the results depend on the processing

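Counting the near-identical Cwc22 probe sets once lowered the mean difference to 0.64 and the number of probe sets at least 2-fold apart with separated groups to 1; this follows from giving that measurement the weight of 1 probe set, and was chosen after seeing the data. With 1 array left out the number lay between 0 and 7, with 0 without cKO replicate 2 and 0 without Het replicate 1, where the set lay at 0.81 and 0.89. The mean difference over 8 probe sets was 0.71 to 1.18 with 1 array left out, 0.94 with arrays centred, and 1.05 as a median over probe sets. Replicate number as a block left it at 0.95, as it must when each number occurs in both groups. The block gave 0 calls by limma over all genes, as did the other settings run. Deviations of same-numbered arrays correlated at 0.31 over probe sets, and with 2 pairs the numbers are not taken as a pairing. A block or a robust prior cannot change a difference here, and centring removed array medians of only -0.00366 to 0.0043. That 0 of 50 other genes followed changed sign under these settings is therefore no sign of stability. Without a single array, 7 of the 50 changed sign. Their ranges over the arrays left out were -0.10 to 0.25 for Frzb, -0.44 to 0.29 for Glo1, -0.04 to 0.16 for Ide, -0.30 to 0.09 for Nnt, -0.08 to 0.24 for Nom1, -0.02 to 0.55 for Plrg1 and -0.02 to 0.38 for Upf2. Their groups overlapped in the full data. No level or background was left in the values, so dim probe sets could not be told from bright ones.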

Other observations

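Apart from Cwc22, the probe sets at least 2-fold higher in cKO with separated groups named 3 genes, and 4 probe sets had no single gene name. These genes were picked after their values were seen. Cartpt, a neuropeptide precursor gene, stood at 1.66 and 0.12 in cKO replicates 1 and 2 and at -0.32 and -0.12 in Het replicates 1 and 2, so that 1 array carried most of its difference. Ndnf, a secreted factor gene, stood at 0.07 and 1.03 in cKO replicates 1 and 2 and at -0.98 and -0.07 in Het replicates 1 and 2. The third was Xist. Of the 8 probe sets of any annotation closest to the mean Cwc22 profile, 3 had no listed gene, and the nearest of these lay at a distance of 0.166.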
